A study of Rattus norvegicus with 64 samples.

Results

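Collagens and laminins are the main structural proteins of the extracellular matrix, and the genes described here are those whose symbol is Col, a type number and an alpha chain number, or Lam, the letter a, b or c and a chain number. The count files held 34 such genes among 17260: 10 fibrillar collagens, 6 collagens of basement membranes, 7 laminin chains, 3 collagens grouped as neuronal or transmembrane and 8 other collagens. The RNA came from Long Evans rats, an outbred strain, aged P2, P9, P23 or P45 (postnatal day). From brain slices, layer II (LII) was dissected under a microscope apart from the deeper layers together (LDeep), in the medial (MEC) and in the lateral (LEC) entorhinal cortex. The 64 libraries fell into 16 groups of 2 regions, 2 layers and 4 ages. Each group held 5 replicates for P2, 4 for P9 as for P45, and 3 for P23. The study asked how gene expression in these layers differs and develops, so each member was compared between layers, ages and regions. A level is given in CPM, the count scaled to the library's size after edgeR's TMM normalization, and a difference as a log2 fold change (LFC) ± its SE with a p-value adjusted over all genes by the Benjamini-Hochberg method (adjusted p). A member was called where its adjusted p was under 0.05, and an LFC above 0 means higher in LII, at P23 and P45, or in MEC. The labels give no animal for a sample, so that the p-values measure the spread between samples, and in bulk tissue fewer cells of a type cannot be told apart from less RNA per cell.

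Collagens are trimers of alpha chains. Fibrillar collagens of types I, II, III, V, XI and XXVII form the fibrils of connective tissue, which in the brain lies mainly in the meninges and around larger vessels. Collagen IV and the laminins, which are trimers of an alpha, a beta and a gamma chain, build the sheets of basement membranes under the pia and around brain vessels. Other collagens sit on the surface of fibrils or span the plasma membrane, and some of the latter are made by neurons.

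Total counts per library ranged from 3894334 to 11439143, and the 34 members together took 0.0473 to 0.302% of them. The dissected layers were checked with markers of layer II neurons (Reln, Calb1 and Wfs1) and of deep layer neurons (Tle4, Foxp2, Fezf2 and Bcl11b). In 2 of 64 libraries the summed layer II markers went against the label, each time in an LDeep library that lay within the LII range of its region and age. The layer II marker sum of MEC LDeep P2 was 785, 395, 312, 386 and 267 CPM in replicates 1 to 5, against 702, 1050.3, 1068, 1017 and 1539 CPM in MEC LII P2. That of LEC LDeep P45 was 572, 830.2, 618 and 1399.9 CPM in replicates 1 to 4, against 1006, 1579, 914 and 1769 CPM in LEC LII P45. MEC LDeep P2 replicate 1 and LEC LDeep P45 replicate 4 are therefore the libraries that stood apart, by layer II markers alone. Their deep layer marker sums, 373 and 314 CPM, went with the label. These sums lay above the highest LII library of their region and age (341 and 186 CPM). No collagen or laminin entered that check. In MEC LII P2 the meningeal fibroblast markers (a list of 16 genes such as Slc6a13, Igf2 and Fmod) were also uneven, with summed levels of 451, 905, 65.9, 910.0 and 501 CPM, although replicates 1 and 3 did not go against their layer label.

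Per length of annotated exon, the members spanned 0.0502 to 29.7 in units of RPKM, counts scaled by exon length and by library size (mean of 64 libraries). The highest were Col3a1 at 29.7 RPKM, which encodes the single chain of fibrillar collagen III, and Col4a1 at 29.5 RPKM, a chain of the main collagen of vessel and pial basement membranes. Col1a1, a chain of fibrillar collagen I, followed at 19.4 RPKM and Lamc1, the gamma chain of most laminins, at 16.9 RPKM. The means of Col3a1 and Col1a1 hid a wide range: their medians over the 64 libraries were 8.34 and 5.14 RPKM, while the median of Col4a1 was 25.5 RPKM. Col17a1, a transmembrane collagen of skin attachment, was the lowest member, had at most 1.15 CPM in any library, and did not pass the filter on low counts, leaving 33 members in the tests.

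Most members were higher in LII than in LDeep. In MEC, 25 of the 33 tested (75.8%) were called higher in LII and 2 lower, while among all genes tested 19.7% were called higher and 18.3% lower. In LEC, 22 (66.7%) were higher and 3 lower, against 18.5% and 19.2% of all genes. The median LFC of the members was 0.86 in MEC and 0.91 in LEC, and that of all genes -0.03 and -0.04. The groups were not alike in size of difference: the medians in MEC and LEC were 0.97 and 0.83 for fibrillar collagens, 0.61 and 0.62 for basement membrane collagens, 1.21 and 1.11 for laminins and 0.90 and 0.98 for the other collagens.

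**Figure D1:**
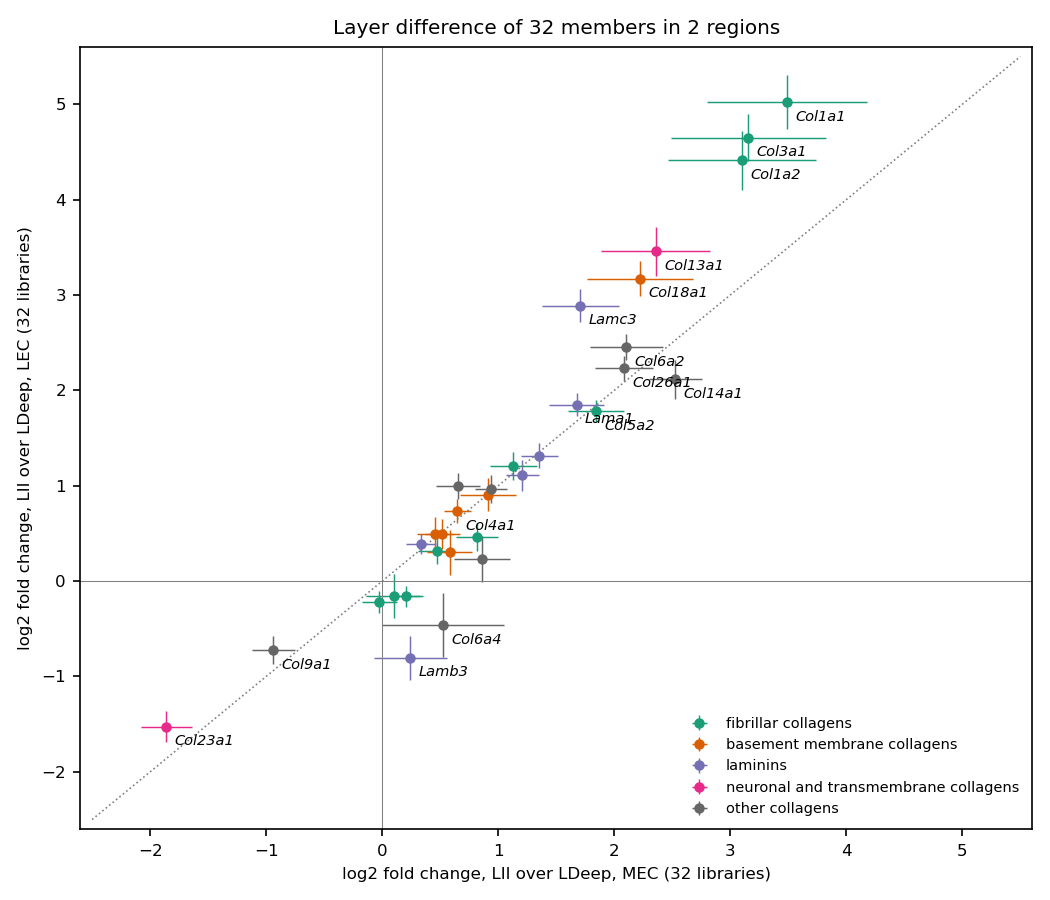
Each point is 1 of 32 member genes, with its log2 fold change of LII over LDeep in MEC on the x axis and in LEC on the y axis, bars showing ± SE, colours the 5 gene groups and the dotted line equal values. Col1a1, Col3a1 and Col1a2 lie farthest towards LII in both regions, and Col23a1 farthest towards LDeep.

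Markers of other cells moved with the layers too. Of all genes tested, 19.7% were called higher and 18.3% lower in LII in MEC, and 18.5% and 19.2% in LEC. With age, 36.8% of all genes rose and 37.5% fell in MEC, and 38.8% and 36.6% in LEC. Of 16 meningeal fibroblast markers, 15 were higher and 1 lower in LII in MEC, and 15 were higher in LEC. The exception was Dcn, with LFC = -0.93 ± 0.28, adjusted p = 0.0100 in MEC and LFC = -0.03 in LEC, named here after its values were seen. Their summed level was 65.9 to 1224 CPM in MEC LII and 72.9 to 737 CPM in MEC LDeep, and 589 to 1449.7 CPM in LEC LII against 38.6 to 255 CPM in LEC LDeep. Ogn had no count in LEC LDeep at P2, P9 and P23, and no other marker of these lists was at 0 throughout a group. All 10 endothelial markers were higher in LII in both regions, with sums of 476 to 743 CPM in LEC LII and 213 to 430.3 CPM in LEC LDeep, and 226 to 789 and 207 to 514 CPM in MEC. Of 8 pericyte and smooth muscle markers, 8 were higher in LII in MEC and 7 in LEC, with sums of 235 to 520.2 CPM in LEC LII and 131 to 226 CPM in LEC LDeep. In MEC their sums overlapped, at 182 to 598 CPM in LII and 108 to 309 CPM in LDeep. Of 5 astrocyte markers 5 and 4 were higher in LII, of 5 oligodendrocyte markers 5 and 3 were lower, of 5 neuron markers 3 and 2 were lower, of 3 layer II neuron markers 3 and 2 were higher and of 4 deep layer neuron markers 4 and 3 were lower, in MEC and LEC. With age, 5 of 5 oligodendrocyte and 5 of 5 neuron markers rose in both regions, and of the meningeal markers 1 rose and 1 fell in MEC and 6 rose and 1 fell in LEC. Of the endothelial markers 4 rose and 1 fell in MEC and 4 and 2 in LEC, of the pericyte and smooth muscle markers 4 and 2 in each, and of the astrocyte markers 4 and 0 in MEC and 4 and 1 in LEC. Their part in the layer and age differences of the members was not tested.

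Among the fibrillar collagens, the chains of types I and III carried the widest layer differences. The counts are from the exons of Col1a1 on chromosome 10 (Rn6, 82745801 to 82762790) and of Col3a1 on chromosome 9 (Rn6, 52023295 to 52059221). Col1a1 ranged from 3.60 to 339 CPM with a median of 202 in the 16 MEC LII libraries and from 0.693 to 286 CPM with a median of 7.89 in the 16 MEC LDeep libraries. In LEC, it ranged from 116 to 362 CPM with a median of 225 in LII and from 0.898 to 22.2 CPM with a median of 7.05 in LDeep. Every LEC LII library thus lay above every LEC LDeep library, whereas in MEC the layers overlapped through the P2 samples. The difference was LFC = 3.49 ± 0.69, adjusted p = 2.18e-04 in MEC and LFC = 5.02 ± 0.28, adjusted p = 2.23e-15 in LEC. Without MEC LDeep P2 replicate 1 the value in MEC was 4.78. Col3a1 ranged from 167 to 489 CPM with a median of 286 in LEC LII and from 2.18 to 22.4 CPM with a median of 12.8 in LEC LDeep, with LFC = 4.65 ± 0.25, adjusted p = 6.03e-16. In MEC, it ranged from 6.90 to 509 CPM with a median of 215 in LII and from 2.16 to 351 CPM with a median of 11.8 in LDeep, with LFC = 3.16 ± 0.67, adjusted p = 4.46e-04. As for Col1a1, the layers of Col3a1 did not overlap in LEC and did in MEC, where the value without that library was 4.27.

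Col5a1, a chain of the collagen V that nucleates fibrils, differed less and overlapped between layers in both regions. It ranged from 37.6 to 215 CPM with a median of 97.8 in MEC LII and from 16.9 to 189.6 CPM with a median of 48.4 in MEC LDeep, with LFC = 1.13 ± 0.20, adjusted p = 6.95e-05, and in LEC LFC = 1.21 ± 0.14, adjusted p = 3.75e-08. The partner chain Col5a2 was higher in LII in both regions with LFC = 1.84 ± 0.24 and 1.78 ± 0.12, and Col27a1 with 0.82 ± 0.18 and 0.46 ± 0.15. Col11a2 was called in MEC with 0.47 ± 0.16 and lost the call without P9 replicate 3, P23 replicate 2, P23 replicate 3 or P45 replicate 1. In LEC it had 0.32, with adjusted p = 0.0649, and was called without LEC LDeep P45 replicate 4 (LFC = 0.42 ± 0.11, adjusted p = 0.00260). Col5a3, Col2a1 and Col11a1, the latter pair being chains of cartilage fibrils, were called in neither region, with values between -0.22 and 0.20. Col1a2, the partner chain of Col1a1, had LFC = 3.10 ± 0.64 in MEC and 4.41 ± 0.31 in LEC from 985 counts in all, against 49018 for Col1a1. The annotation used for counting (Rn6) places Col1a2 on chromosome 4 as 52 exon blocks at 29529854 to 29564781 and again as 52 blocks at 31534225 to 31569152, with the same length in 52 of 52 pairs of blocks. The counting command did not ask for reads that align to several places, so that the level of Col1a2 is uncertain. Col1a2 is still included in the counts of called members, the group medians and the figures of layer differences.

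At P2 the layers of MEC gave few or no calls of members as long as all libraries were used. None was called by edgeR on the 32 MEC libraries and 10 had an unadjusted p under 0.05. DESeq2 called 4, limma voom 1, edgeR with the replicate block 3 and edgeR on all 64 libraries 5. In the fit without a call 4.39% of all genes were called. Col1a1 measured 10.2, 279.9, 3.60, 339 and 180.2 CPM in MEC LII P2 replicates 1 to 5 and 286, 1.41, 0.693, 2.93 and 1.95 CPM in MEC LDeep P2. The LDeep library of replicate 1 was at the level of LII libraries, while the LII libraries of replicates 1 and 3 were near the other LDeep ones. Col3a1 repeated this with 6.90, 450.4, 9.66, 477 and 291 CPM in LII and 351, 2.81, 5.20, 2.48 and 2.31 CPM in LDeep. The summed meningeal markers of the same LDeep libraries were 737, 112, 72.9, 87.5 and 96.3 CPM, so that replicate 1 was high in these too, and their part in the result was not tested. Without MEC LDeep P2 replicate 1, an alternative added after the data were seen, 13 members were called, against 8.75% of all genes higher in LII in that fit. The 13 were all higher in LII: Col1a1, Col3a1, Col1a2, Col5a2, Col18a1, Col4a1, Col4a4, Lama1, Lamc3, Col13a1, Col6a2, Col14a1 and Col26a1. Col1a1 then had LFC = 6.64 ± 1.19, adjusted p = 7.60e-04, and Col4a1 LFC = 0.66 ± 0.20, adjusted p = 0.0274. Leaving out both MEC libraries of P2 replicate 1 gave 12 called members, all higher in LII, against 7.67% of all genes.

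Of the basement membrane collagens, 6 of 6 were called higher in LII in MEC and 5 of 6 in LEC. Col4a1 ranged from 65.5 to 535 CPM with a median of 247 in MEC LII and from 37.0 to 417 CPM with a median of 158 in MEC LDeep, with LFC = 0.65 ± 0.12, adjusted p = 7.54e-05. In LEC, the ranges were 65.7 to 494 (median 243) and 36.3 to 226 (median 146) CPM, with LFC = 0.73 ± 0.12, adjusted p = 1.22e-05. The layers overlapped in both regions, and Col4a1 also moved with age. Col18a1, whose C-terminal fragment is endostatin, had a difference several times larger. In LEC it measured 176, 169, 109, 88.6 and 148 CPM in LII at P2 and 2.13, 2.63, 7.44, 9.27 and 3.42 CPM in LDeep at P2, and no LDeep library of any age reached the lowest LII library. The difference was LFC = 3.17 ± 0.18, adjusted p = 3.56e-15 in LEC and LFC = 2.22 ± 0.45, adjusted p = 3.10e-04 in MEC, where it was 2.84 without MEC LDeep P2 replicate 1. Col4a4, a chain of the collagen IV of specialised basement membranes, was low at 0.947 to 3.801 (median 2.18) CPM in MEC LII and 0.231 to 3.67 (median 1.23) CPM in MEC LDeep and was higher in LII with LFC = 0.91 ± 0.24 in MEC and 0.91 ± 0.17 in LEC. With limma voom and quantile normalization the MEC call was lost, at LFC = 0.53 and adjusted p = 0.0545. Col4a3, its partner, was called in MEC at 0.58 ± 0.19, lost that call with limma voom (LFC = 0.23, adjusted p = 0.422), and had 0.30 in LEC with adjusted p = 0.3298. Col15a1 and Col7a1, the latter a collagen of anchoring fibrils, were higher in LII in both regions, with values between 0.46 and 0.52. With limma voom these calls were lost, at 0.11 and 0.04 for Col15a1 and 0.27 and 0.24 for Col7a1 in MEC and LEC. Those of Col15a1 were also lost without P9 replicate 2, P23 replicate 2 or P45 replicate 3, and that in LEC without P9 replicate 4, P23 replicate 1 or P45 replicate 2.

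The laminin chains were not alike in their layer difference. Lamc1 was abundant in both layers, at 90.6 to 226 (median 138) CPM in MEC LII and 82.7 to 252 (median 109.9) CPM in MEC LDeep, and differed little, with LFC = 0.34 ± 0.13, adjusted p = 0.0388 in MEC and LFC = 0.39 ± 0.10, adjusted p = 0.00296 in LEC. The MEC call was lost without any single one of 11 replicates, namely P2 replicates 2 and 5, P9 replicates 2 and 3, P23 replicates 1 to 3 and P45 replicates 1 to 4. Lamb2, the beta chain of vascular and synaptic laminins, ranged from 31.6 to 155 CPM with a median of 79.1 in MEC LII and from 16.9 to 69.8 CPM with a median of 34.0 in MEC LDeep. It was higher in LII, with LFC = 1.36 ± 0.16, adjusted p = 2.39e-07, and in LEC with LFC = 1.31 ± 0.13, adjusted p = 8.50e-10. Lama1, the alpha chain of early and pial basement membranes, ranged from 18.8 to 92.4 CPM with a median of 45.1 in LEC LII and from 6.95 to 20.9 CPM with a median of 12.3 in LEC LDeep, so that a single LDeep library reached the LII range. Its difference was LFC = 1.85 ± 0.12, adjusted p = 5.23e-14 in LEC and LFC = 1.68 ± 0.24, adjusted p = 3.38e-06 in MEC. Lamc3, a less common gamma chain, had the widest difference of the laminins. It measured 33.5, 34.1, 18.5 and 45.0 CPM in LEC LII at P9 and 2.60, 2.73, 2.04 and 1.31 CPM in LEC LDeep at P9, without overlap. Over all ages it had LFC = 2.89 ± 0.17, adjusted p = 1.25e-14 in LEC and LFC = 1.71 ± 0.33, adjusted p = 1.77e-04 in MEC, where it was 2.05 without MEC LDeep P2 replicate 1. Lama5 was higher in LII with LFC = 1.21 ± 0.14 and 1.11 ± 0.16. Lamb3, a chain of the laminin of epithelial attachment, did not follow and was lower in LII of LEC at 0 to 2.32 (median 1.10) CPM against 0.554 to 3.67 (median 1.96) CPM in LDeep, with LFC = -0.80 ± 0.23, adjusted p = 0.00607, and was not called in MEC (LFC = 0.24). The difference between the regions was not called either, with LFC = 1.05 ± 0.40, adjusted p = 0.229.

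The transmembrane collagens Col13a1 and Col23a1 went opposite ways. In the counting annotation (Rn6) Col13a1 spans bases 31456502 to 31598298 of chromosome 20 and Col23a1 bases 36741434 to 37028365 of chromosome 10. The 250 bases before their annotated starts are shown because these related genes had layer differences of opposite sign. They come from RefSeq (GRCr8), at chr20:30466801-30467050 on the minus strand for Col13a1 and at chr10:36050077-36050326 on the plus strand for Col23a1. Capitals mark the TATA box letters TATAAA, the letters CCAAT or the GC box letters GGGCGG, searched on both strands. None of these motifs can contain another.
Col13a1: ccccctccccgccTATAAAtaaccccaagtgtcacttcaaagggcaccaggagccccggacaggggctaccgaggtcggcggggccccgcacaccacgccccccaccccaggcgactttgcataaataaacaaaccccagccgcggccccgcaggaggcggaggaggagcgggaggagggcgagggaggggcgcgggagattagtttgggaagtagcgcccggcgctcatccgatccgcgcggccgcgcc
Col23a1: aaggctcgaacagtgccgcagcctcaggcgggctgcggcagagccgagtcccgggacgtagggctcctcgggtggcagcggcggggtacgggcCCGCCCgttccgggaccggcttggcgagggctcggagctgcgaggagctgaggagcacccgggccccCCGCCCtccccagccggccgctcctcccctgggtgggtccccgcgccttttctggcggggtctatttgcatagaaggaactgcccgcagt
The Col13a1 stretch holds TATAAA 1 time and no GGGCGG, and the Col23a1 stretch GGGCGG 2 times on the minus strand and no TATAAA. Among all 33469 RefSeq stretches of that length, 12.9% hold TATAAA, 34.0% hold CCAAT and 30.5% hold GGGCGG, and of the 27 members with a stretch, 3, 7 and 15 do. A match of letters is a description of the sequence and says nothing of a factor bound there.

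Col13a1, a collagen of cell-matrix contacts, was low throughout. It ranged from 2.55 to 7.72 CPM with a median of 4.41 in LEC LII and from 0 to 1.65 CPM with a median of 0.381 in LEC LDeep, without overlap, from 473 and 67 counts. In MEC it ranged from 0 to 6.61 CPM with a median of 3.32 in LII and from 0 to 3.28 CPM with a median of 0.455 in LDeep, from 379 and 80 counts, and the layers overlapped. The difference was LFC = 3.46 ± 0.25, adjusted p = 1.04e-12 in LEC and LFC = 2.36 ± 0.47, adjusted p = 2.29e-04 in MEC, where it was 2.88 without MEC LDeep P2 replicate 1. Col23a1 was the member with the widest difference towards LDeep, with LFC = -1.86 ± 0.22, adjusted p = 3.12e-07 in MEC and LFC = -1.53 ± 0.16, adjusted p = 2.92e-09 in LEC. At P2 it measured 17.5, 6.94, 4.17, 9.91 and 4.62 CPM in MEC LII and 9.99, 4.73, 4.16, 21.9 and 8.52 CPM in MEC LDeep, and the layers overlapped fully. At P9 it measured 8.76, 5.31, 7.09 and 6.21 CPM in MEC LII and 82.6, 66.6, 33.03 and 45.3 CPM in MEC LDeep, every LDeep library being above every LII one. LEC gave the same order at P9, with 4.89, 7.88, 6.93 and 7.49 CPM in LII and 36.4, 32.9, 28.9 and 15.3 CPM in LDeep. Col23a1 was called lower in LII at P9, P23 and P45 in both regions, with LFC from -3.06 to -1.80, and not at P2, where the values were -0.14 in MEC and 0.11 in LEC. In MEC the call at P23 was lost without P23 replicate 1 (adjusted p = 0.0577) and that at P45 without P45 replicate 3 (adjusted p = 0.0509). The LDeep level of MEC went from a median of 8.52 CPM at P2 to one of 55.9 CPM at P9 and 21.3 CPM at P45, while the LII medians stayed between 4.19 and 6.94 CPM.

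**Figure D2:**
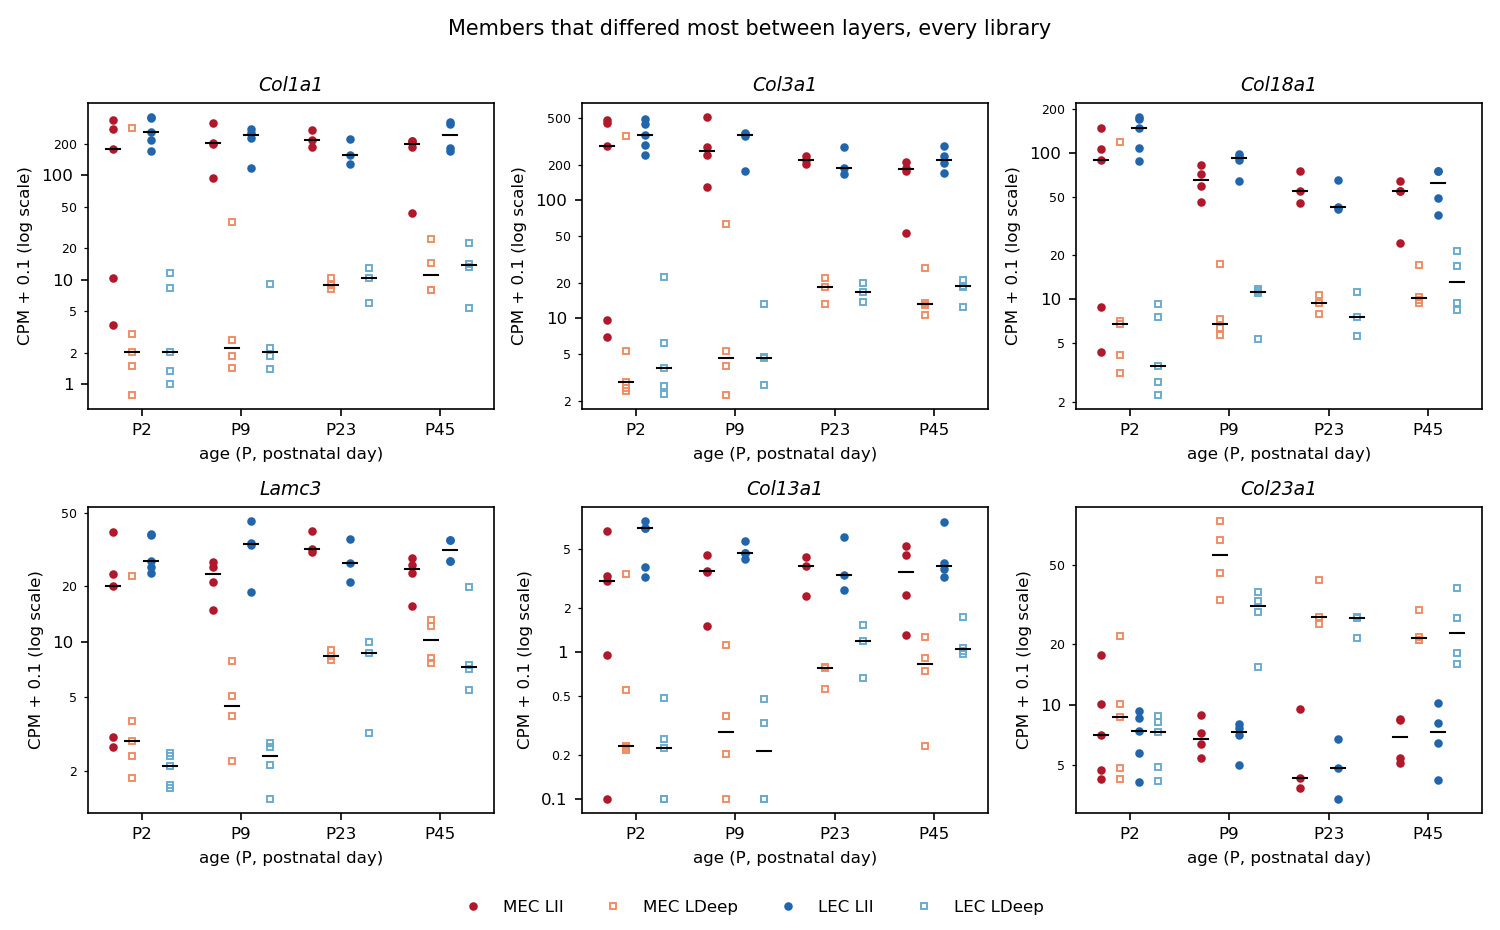
CPM plus 0.1 on a log axis at each age for 6 members, with a point for every library (filled circles LII, open squares LDeep, red shades MEC, blue shades LEC) and a bar at the median of the group. At P2 in MEC, 1 LDeep library sits with the LII libraries and 2 LII libraries sit low for Col1a1, Col3a1, Col18a1 and Lamc3, while Col23a1 separates the layers from P9 on in the opposite direction.

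Of the other collagens, Col6a2, a chain of collagen VI microfibrils, ranged from 40.2 to 127 CPM with a median of 92.7 in LEC LII and from 7.76 to 23.1 CPM with a median of 16.7 in LEC LDeep, without overlap. Its difference was LFC = 2.45 ± 0.14, adjusted p = 1.79e-15 in LEC and LFC = 2.10 ± 0.31, adjusted p = 6.55e-06 in MEC. Col16a1, which sits on fibrils, ranged from 24.6 to 76.9 CPM with a median of 46.7 in MEC LII and from 16.5 to 38.1 CPM with a median of 24.8 in MEC LDeep, with LFC = 0.94 ± 0.14, adjusted p = 4.23e-06, and had LFC = 0.97 ± 0.14, adjusted p = 2.39e-06 in LEC. Col16a1 overlapped between the MEC layers. Col14a1, another collagen on the surface of fibrils, ranged from 3.58 to 33.3 CPM with a median of 18.2 in MEC LII and from 0.570 to 11.1 CPM with a median of 2.64 in MEC LDeep. Its difference was the widest of this group in MEC, with LFC = 2.53 ± 0.23, adjusted p = 2.67e-09, and LFC = 2.12 ± 0.21, adjusted p = 6.00e-10 in LEC. Col26a1 had LFC = 2.08 ± 0.25, adjusted p = 3.31e-07 in MEC and LFC = 2.23 ± 0.13, adjusted p = 8.12e-15 in LEC. Col9a1 and Col9a2 are chains of the same collagen IX and went opposite ways. Col9a1 measured 4.63, 3.33, 4.02 and 6.78 CPM in MEC LII at P9 and 10.8, 9.75, 6.26 and 13.1 CPM in MEC LDeep at P9 and was lower in LII over all ages, with LFC = -0.94 ± 0.19, adjusted p = 2.19e-04 in MEC and LFC = -0.72 ± 0.14, adjusted p = 1.71e-04 in LEC. Col9a2 measured 29.9, 25.9, 26.4 and 26.5 CPM in MEC LII at P9 and 17.2, 20.6, 16.7 and 14.5 CPM in MEC LDeep at P9 and was higher in LII, with LFC = 0.66 ± 0.19, adjusted p = 0.00802 and LFC = 1.00 ± 0.13, adjusted p = 3.91e-07. With limma voom the MEC call of Col9a2 was lost (LFC = 0.42, adjusted p = 0.0804). At P9 the MEC layers overlapped for Col9a1 and not for Col9a2. Col8a1, a network collagen of vessels, was low, at 0 to 3.25 (median 1.80) CPM in MEC LII and 0.417 to 1.89 (median 0.994) CPM in MEC LDeep. It was called in MEC and not in LEC (0.86 ± 0.24 in MEC, 0.23 in LEC), lost the MEC call with limma voom (LFC = 0.39, adjusted p = 0.215), and the difference between regions was not called, with LFC = 0.65 and adjusted p = 0.471.

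The layer difference of single ages is shown by region in the plot of colours. In LEC 16 members were higher in LII and none lower at P2, against 8.70% and 4.23% of all genes. At P9 21 were higher and 2 lower, against 12.9% and 4.19%, at P23 15 and 1, against 8.22% and 6.13%, and at P45 17 and 2, against 9.72% and 6.26%. The members' share of calls towards LII was thus above that of all genes at each age of LEC. In MEC 13 were higher and 2 lower at P9, against 7.88% and 4.65% of all genes, 11 and 2 at P23, against 8.18% and 4.86%, and 12 and 2 at P45, against 7.75% and 3.88%. The MEC counts changed when single replicates were left out. Such fits hold fewer libraries for every gene, and their shares of all genes at these ages are not given here. The changes are therefore not a result about the members. At P9 the MEC counts were 4 without replicate 1 and 6 without replicate 2 or replicate 4, at P23 8, 4 and 5 without replicates 1, 2 and 3, and at P45 4, 9 and 6 without replicates 1, 2 and 3. The LEC count at P9 was 14 without replicate 2. All ages of a region shared 1 estimate of the spread of each gene. In MEC at P23 Col1a1 measured 185, 272 and 217 CPM in LII and 10.3, 8.73 and 8.09 CPM in LDeep, without overlap, and still had adjusted p = 0.0595 for LFC = 4.64. Without MEC LDeep P2 replicate 1 the same age gave LFC = 4.64 ± 1.15, adjusted p = 0.00670. The P23 count was 20 without P2 replicate 1. The share of all genes in that fit is not given here either, so this rise is not a result about the members.

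**Figure D3:**
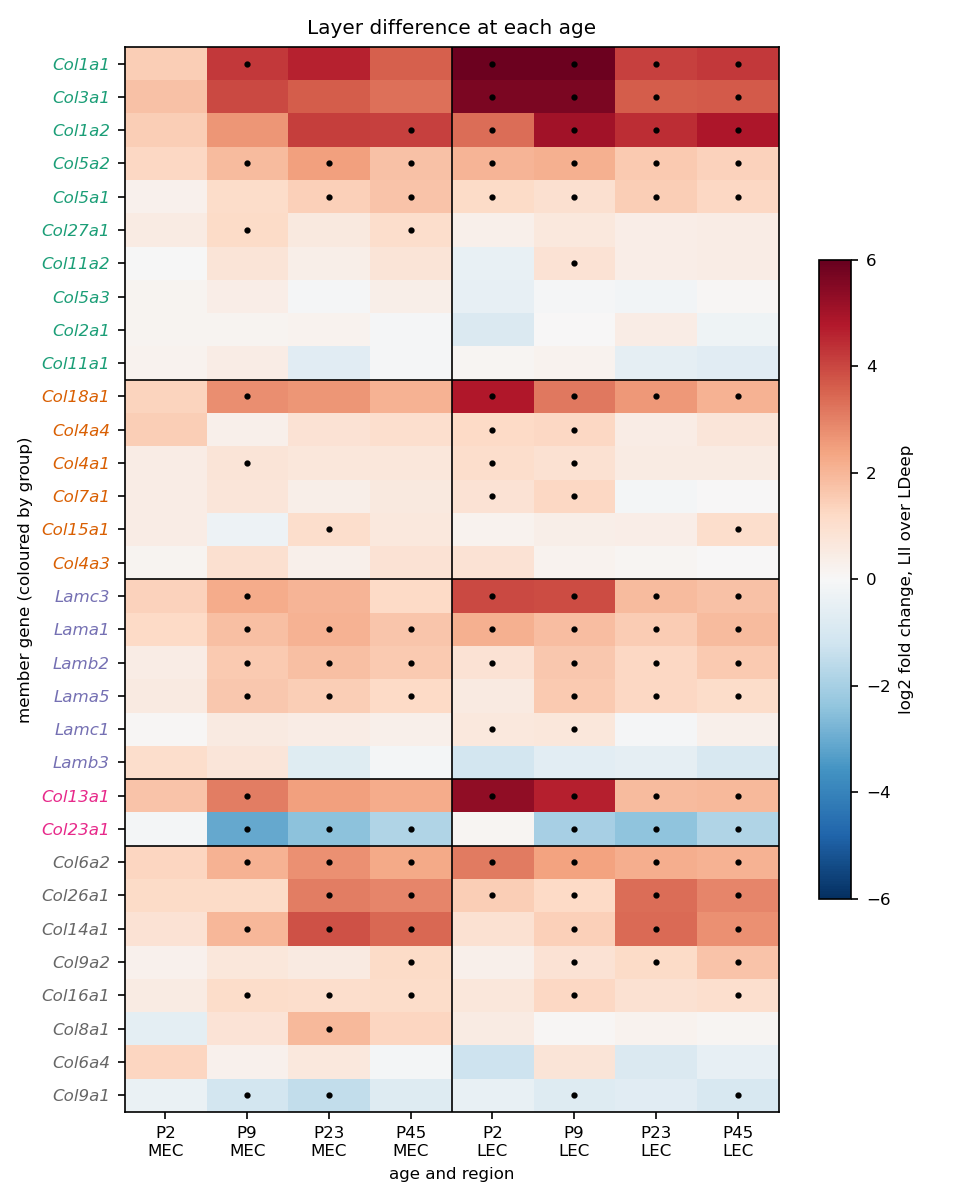
Log2 fold change of LII over LDeep (colour, red higher in LII) for 32 members in rows, ordered within the 5 groups, at each age in MEC and LEC in columns, with a dot where the adjusted p was under 0.05. Dots are absent from the MEC P2 column, and Col23a1 and Col9a1 are the rows that are blue from P9 on in both regions.

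Some members changed their layer difference between the younger ages (P2 and P9) and the older ones (P23 and P45). In MEC 2 members gained on the LII side and none on the LDeep side, while 1.76% of all genes did the first and 1.76% the second. In LEC 2 gained on the LII side and 6 on the LDeep side, against 1.28% and 2.74%. Col14a1 and Col26a1 widened in both regions. Col14a1 measured 6.62, 6.90, 4.69, 6.84 and 5.98 CPM in LEC LII and 2.58, 2.77, 3.84, 4.38 and 3.42 CPM in LEC LDeep at P2. At P23 it measured 17.2, 13.1 and 7.84 and 1.37, 1.86 and 0.282 CPM, LII being higher and LDeep lower than at P2. The change was LFC = 2.21 ± 0.45, adjusted p = 0.00441 in MEC and LFC = 1.91 ± 0.42, adjusted p = 0.00480 in LEC. Col26a1 fell with age in both layers, to 17.7, 10.7, 10.6 and 7.34 CPM in LEC LII and 2.28, 0.499, 1.54 and 1.60 CPM in LEC LDeep at P45 from 51.7, 43.2, 34.2, 36.1 and 47.4 and 14.3, 14.4, 20.2, 15.8 and 13.5 CPM at P2. Its change was LFC = 1.80 ± 0.27, adjusted p = 7.09e-05 in LEC and LFC = 1.85 ± 0.50, adjusted p = 0.0342 in MEC, where the call was lost with limma voom (adjusted p = 0.249) and with the replicate block (adjusted p = 0.0564), and 8 replicates left out singly took the MEC count to 1. These were P2 replicate 5, P9 replicates 3 and 4, P23 replicates 2 and 3 and P45 replicates 1, 2 and 3, while the count was 4 without P2 replicate 3.

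In LEC the difference narrowed for Col3a1, Col18a1, Lamc3, Col13a1 and Col7a1. Lamc3 had LFC = -2.11 ± 0.35, adjusted p = 2.18e-04, with LDeep at 1.57, 1.52, 2.4, 2.32 and 2.02 CPM at P2 and 7.34, 6.98, 5.41 and 19.7 CPM at P45. The LII libraries changed less, from 37.8, 38.1, 25.4, 27.2 and 23.4 CPM at P2 to 35.6, 35.5, 27.3 and 27.3 CPM at P45. Col3a1 had LFC = -2.0 ± 0.44, adjusted p = 0.00526, with LDeep at 4.51, 13.3, 4.62 and 2.63 CPM at P9 and 19.96, 16.6 and 13.8 CPM at P23. Col13a1 had LFC = -3.07 ± 0.55, adjusted p = 5.64e-04, from 5 and 6 counts in LDeep at P2 and P9 together with 22 and 34 at P23 and P45, and a fold from so few counts depends on the small count that the fit adds. Without LEC LDeep P45 replicate 4 these calls held, except that of Col7a1, which was lost there, with limma voom, RLE size factors or at least 10 counts in every sample, in the fit of all 64 samples, and without any single one of 12 replicates (P2 replicates 1, 2, 3 and 5, P9 replicates 1 to 3, P23 replicates 1 to 3 and P45 replicates 3 and 4). In a fit of all 64 samples 4 members were called in LEC, and Col3a1 (adjusted p = 0.446) and Col18a1 (adjusted p = 0.328) were not among them. The MEC values of the same members were not called. Those of Col3a1 and Col18a1 turned with the MEC library that stood apart: Col3a1 was 0.61 with it and -1.62 without it, and Col18a1 0.30 and -0.93. Col1a1, not called for this change in LEC, also turned, from 1.26 with that library to -1.33 without it. Col13a1 was below 0 already with it, as the tested transmembrane collagens had -0.52 to -0.03. Col23a1 had LFC = -1.16 ± 0.32, adjusted p = 0.0308 in LEC, the layers overlapping at P2 and lying apart later. The call was lost with the replicate block (adjusted p = 0.0521), in the fit of all 64 samples and without any single one of P2 replicates 1, 2 and 3, P9 replicates 2, 3 and 4, P23 replicates 2 and 3 and P45 replicates 3 and 4.

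Age moved members both ways. The age tests counted libraries with an equal replicate number, from the 2 layers and for the steps also the 2 regions, as separate samples. Their p-values do not allow for a shared animal. From P2 and P9 to P23 and P45, 6 members rose and 14 fell in MEC, against 36.8% and 37.5% of all genes (18.2% and 42.4% of the members). In LEC 12 rose and 11 fell (36.4% and 33.3%), against 38.8% and 36.6%. By steps, 10 rose and 5 fell from P2 to P9, against 31.6% and 31.8% of all genes. From P9 to P23, 7 rose and 12 fell, against 32.5% and 32.1%, and from P23 to P45 none rose and 2 fell, against 1.99% and 1.86%. The last count, of Col4a1 and Col4a3, was 1 without either of P23 replicates 1 and 2, or any of P45 replicates 1, 2 and 3.

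The widest rises were those of Col4a3 and Col11a2, and the collagen IV chains parted. Col4a1, a chain of the collagen IV around vessels, fell. In MEC LII it measured 224, 402, 271, 535 and 491 CPM at P2, 316, 314, 295 and 283 CPM at P9, 122, 140.2 and 128 CPM at P23 and 73.1, 84.2, 65.5 and 68.0 CPM at P45. The older and the younger libraries of this group did not overlap. The age difference was LFC = -1.84 ± 0.12, adjusted p = 7.85e-14 in MEC and LFC = -1.68 ± 0.13, adjusted p = 3.96e-13 in LEC, and it fell at each of the 3 steps, by 0.43, 1.21 and 0.67 on the log2 scale. Col4a3 went the other way, at a far lower level. In MEC LII it measured 0.400, 0.890, 1.61, 1.65 and 0.660 CPM at P2, 0.496, 2.50, 1.30 and 2.4 CPM at P9, 14.2, 14.3 and 13.0 CPM at P23 and 11.8, 9.84, 7.26 and 10.7 CPM at P45. In LEC LDeep it measured 1.35, 0.470, 1.77 and 1.75 CPM at P9 and 15.5, 11.0 and 6.91 CPM at P23, again without overlap. The age difference was LFC = 3.12 ± 0.19, adjusted p = 1.09e-14 in MEC and LFC = 3.12 ± 0.22, adjusted p = 9.56e-14 in LEC, nearly all of it in the step from P9 to P23 (LFC = 3.21 ± 0.21, adjusted p = 4.74e-19). From P23 to P45 it fell by 0.68 on the log2 scale (adjusted p = 0.0247), a call that was lost when the libraries of a replicate number were summed (adjusted p = 0.332) and without P23 replicate 1 or 2, or P45 replicate 1, 2 or 3.

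Col4a3 and Col4a4 start back to back, 413 bases apart on chromosome 9 of GRCr8, and the 250 bases before each start are shown because the pair shares this stretch and yet differed in age profile. The RefSeq stretches are chr9:91323740-91323989 on the plus strand for Col4a3 and chr9:91323578-91323827 on the minus strand for Col4a4, and 88 bases are common to both. Col11a2 (chr20:4817649-4817898, minus strand) is shown as the other member with a rise of this size, with the same motifs in capitals.
Col4a3: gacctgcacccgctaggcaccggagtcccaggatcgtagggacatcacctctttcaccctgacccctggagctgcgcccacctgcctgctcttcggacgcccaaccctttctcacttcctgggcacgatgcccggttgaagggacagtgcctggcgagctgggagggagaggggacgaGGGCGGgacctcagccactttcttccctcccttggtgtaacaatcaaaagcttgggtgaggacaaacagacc
Col4a4: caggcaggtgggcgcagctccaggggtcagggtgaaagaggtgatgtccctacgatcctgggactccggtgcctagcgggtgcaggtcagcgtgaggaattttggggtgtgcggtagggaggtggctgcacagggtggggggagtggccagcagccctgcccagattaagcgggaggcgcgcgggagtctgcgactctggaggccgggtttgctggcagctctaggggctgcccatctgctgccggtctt
Col11a2: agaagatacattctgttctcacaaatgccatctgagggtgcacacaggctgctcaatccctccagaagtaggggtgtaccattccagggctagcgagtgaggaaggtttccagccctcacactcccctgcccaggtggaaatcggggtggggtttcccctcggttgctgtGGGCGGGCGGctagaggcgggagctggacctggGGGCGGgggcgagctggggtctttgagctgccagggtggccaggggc
GGGCGG occurs 1 time in the Col4a3 stretch, 3 times in that of Col11a2 (the first 2 overlapping) and in neither orientation in that of Col4a4, and none of the 3 holds TATAAA or the letters CCAAT. Col4a4 measured 3.801, 1.98, 1.54 and 0.988 CPM at P9 and 3.49, 3.19 and 2.96 CPM at P23 in MEC LII, and the ages overlapped. From P9 to P23 it rose with LFC = 0.56 ± 0.21, adjusted p = 0.0172, against the 3.21 of Col4a3, and its age difference was 0.55 ± 0.24 in MEC and 0.71 ± 0.17 in LEC. The step was not called when libraries of a replicate number were summed (adjusted p = 0.0782), without P9 replicate 4 (LFC = 0.35, adjusted p = 0.130) or without P23 replicate 1 or 2. The call of the age difference in MEC was lost when those libraries were summed (adjusted p = 0.0975) and without P2 replicate 3, P9 replicate 3 or 4, P23 replicate 1 or 2, or P45 replicate 1 or 4. Only 7 exon blocks of 1152 bases in all were counted for Col4a4. Over the 64 libraries the log2 CPM of the pair correlated with r = 0.49, and with r = 0.07 once each library was taken as its deviation from its group mean, a description of libraries in which both genes had few counts.

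Col11a2, a chain of collagen XI, rose across the first 2 steps. In MEC LDeep it measured 6.28, 7.41, 11.9, 16.9 and 7.91 CPM at P2, 37.5, 37.9, 24.4 and 15.3 CPM at P9 and 185, 132 and 94.1 CPM at P23. At P45 it measured 123, 162, 124 and 165 CPM, within the range that it had reached at P23. The age difference was LFC = 3.16 ± 0.17, adjusted p = 3.52e-16 in MEC and LFC = 3.15 ± 0.14, adjusted p = 6.00e-19 in LEC. Its partner chains Col11a1 and Col2a1 fell: Col11a1 had LFC = -1.47 ± 0.16 and -1.49 ± 0.12, and Col2a1 -2.51 ± 0.25 and -1.94 ± 0.22. Col2a1, the collagen of cartilage, went from 4.27, 6.51, 17.9, 7.47 and 7.62 CPM in LEC LDeep at P2 to 1.01, 0.873, 1.64 and 1.60 CPM at P45. Col26a1 had the widest fall, with LFC = -3.0 ± 0.26, adjusted p = 1.93e-11 in MEC and LFC = -2.67 ± 0.13, adjusted p = 1.76e-17 in LEC.

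Other age differences were spread over the groups. Col5a1 fell with LFC = -1.20 ± 0.21 and -1.01 ± 0.14 in MEC and LEC, Col9a1 with -1.20 ± 0.19 and -0.77 ± 0.15, and Lama1 with -0.86 ± 0.24 and -0.80 ± 0.12. Lamb2 rose with 0.49 ± 0.16 and 0.62 ± 0.13, and Lamb3 with 1.09 ± 0.32 and 1.13 ± 0.23, from 0.315, 0.445, 0.347, 0 and 1.23 CPM in LEC LII at P2 to 2.02, 1.45, 1.19 and 1.43 CPM at P45. Col8a1 rose with 0.62 ± 0.24 and 0.74 ± 0.24. The MEC call of Col8a1 was lost without P23 replicate 3 (LFC = 0.54, adjusted p = 0.0828). Col6a4, a chain of collagen VI at under 13 CPM in any library, fell with -2.26 ± 0.50 and -1.69 ± 0.32. It had 553 counts over the 64 libraries, with 122 in the highest library and 0 in 6 libraries. Col1a1, Col3a1 and Col18a1 were not called for age in MEC, and there the sign rested on a library: Col1a1 was -0.55 with MEC LDeep P2 replicate 1 and 0.75 without it. In LEC Col1a1 was called at 0.56 ± 0.26 and lost the call without LEC LDeep P45 replicate 4 (LFC = 0.49), with DESeq2 and when any of 11 replicates was left out singly, namely P2 replicates 1, 3 and 5, P9 replicates 1, 3 and 4, P23 replicates 1 and 2 and P45 replicates 1, 2 and 4.

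**Figure D4:**
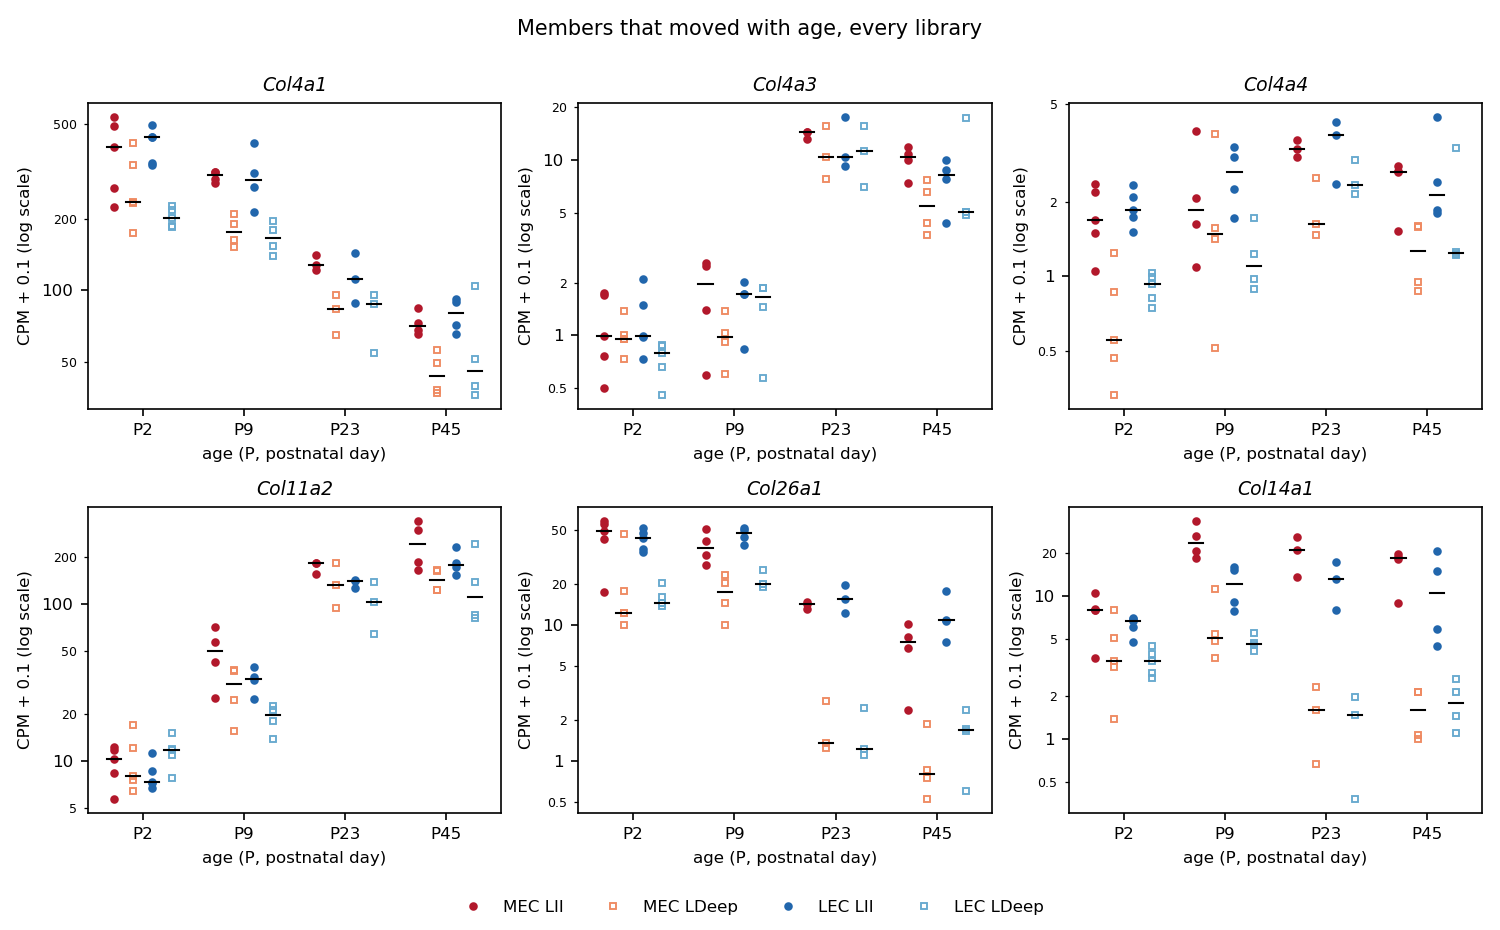
CPM plus 0.1 on a log axis at each age for 6 members, with a point for every library (filled circles LII, open squares LDeep, red shades MEC, blue shades LEC) and a bar at the median of the group. Col4a3 steps up between P9 and P23 in all 4 region and layer series, and Col4a1 and Col26a1 go down. The gap of Col14a1 between layers is wider at P23 and P45 than at P2 and P9.

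Calls between regions were fewer than calls between layers, among the members and among all genes. Of the 33 members 2 were higher in MEC (6.06%) and 1 in LEC (3.03%), against 8.87% and 6.53% of all genes, shares not far from those of the members. Col11a2 (LFC = 0.31 ± 0.11, adjusted p = 0.0434) and Col9a2 (LFC = 0.39 ± 0.12, adjusted p = 0.0190) were higher in MEC, and Col8a1 (LFC = -0.57 ± 0.17, adjusted p = 0.0185) was higher in LEC. The levels behind these values overlapped widely: Col8a1 ranged from 0 to 3.25 CPM with a median of 1.80 in MEC LII and from 0.528 to 4.13 CPM with a median of 2.05 in LEC LII. The count was 1 without P9 replicate 2, P23 replicate 1 or P23 replicate 2. The call of Col11a2 was lost with limma voom (adjusted p = 0.0783) and without any single one of 12 of the 16 replicates (adjusted p = 0.0538 to 0.108), namely P2 replicates 2 to 5, P9 replicates 1 to 3, P23 replicates 1 to 3 and P45 replicates 1 and 2. That of Col9a2 was lost without P9 replicate 2 or P23 replicate 2, and that of Col8a1 without P23 replicate 1. No member was called for a layer difference that itself differed between regions, by edgeR, DESeq2 or limma voom, 6 had an unadjusted p under 0.05 by edgeR, and 1.25% of all genes were called. The widest value was that of Col1a1, -1.52 ± 0.73 (MEC minus LEC, adjusted p = 0.393), and it was -0.31 without the 2 libraries that stood apart. Lamc3 had -1.17 ± 0.39 (adjusted p = 0.131) and -0.95 without them.

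Genes that act on collagens and laminins were read from lists chosen with earlier results of these data known. Of all genes tested, 19.7% were called higher and 18.3% lower in LII in MEC, and 18.5% and 19.2% in LEC. With age, 36.8% of all genes rose and 37.5% fell in MEC, and 38.8% and 36.6% in LEC. Of 11 receptor genes tested, 8 were higher in LII in MEC and 9 in LEC, and none was lower. Itgb4, the beta subunit of a laminin receptor, had the widest difference with LFC = 3.83 ± 0.48 in MEC and 5.61 ± 0.18 in LEC, and Ddr2, a receptor of fibrillar collagen, had 2.15 ± 0.23 and 2.29 ± 0.11. Of the 3 basement membrane partners, Nid2 and Sparc were higher in LII in both regions, Nid2 with 1.93 ± 0.32 and 2.63 ± 0.13, and Agrn was not called. Among 22 genes of collagen synthesis and crosslinking in MEC, 17 were higher and 3 lower in LII, and among 21 in LEC, 13 and 3. Lox, which crosslinks collagen, had 2.91 ± 0.61 and 3.64 ± 0.26, Pcolce, which aids the trimming of procollagen, 2.67 ± 0.46 and 4.43 ± 0.17, and the collagen chaperone Serpinh1 1.41 ± 0.23 and 1.75 ± 0.09. The members lower in LII in both regions were P4ha1, P4ha3 and Adamts3, with -1.72 ± 0.21 and -1.73 ± 0.16 for P4ha3, a proline hydroxylase subunit. Of 10 matrix proteases and inhibitors, 6 were higher and 3 lower in LII in MEC and 4 and 3 in LEC, the latter 3 being Mmp16, Mmp17 and Timp2 in both regions. The membrane protease Mmp14 (2.05 ± 0.15 and 1.89 ± 0.11) and the inhibitor Timp1 (2.39 ± 0.24 and 2.30 ± 0.19) were higher. With age, Lox fell with -1.44 ± 0.62 in MEC and -1.34 ± 0.29 in LEC, Mmp14 with -1.98 ± 0.16 and -2.04 ± 0.11 and Agrn with -1.87 ± 0.12 and -1.51 ± 0.13. Over each list the age calls went both ways, with 5 and 6 receptors rising and 2 and 2 falling in MEC and LEC, 1 and 1 partners rising and 2 and 2 falling, 7 and 6 synthesis genes rising and 12 and 12 falling, and 4 and 4 proteases and inhibitors rising and 5 and 4 falling.

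Within groups, the members were unequal in how far they went with these sums. Each of the 64 libraries was taken as its deviation from the mean of its group on the log2 scale, and the points share their library and its depth with the sum, so that the values are descriptions. Against the meningeal sum, Col6a2 had r = 0.80 and rho = 0.65, Col1a1 r = 0.76 and rho = 0.64 and Col3a1 r = 0.72 and rho = 0.66. The r was 0.62, 0.53 and 0.53 for the 54 libraries other than MEC P2. Against the endothelial sum the values were alike or higher, with r = 0.79 and rho = 0.70 for Col6a2, r = 0.84 and rho = 0.71 for Col1a1 and r = 0.86 and rho = 0.71 for Col3a1, and an r of 0.60, 0.54 and 0.57 without MEC P2. Lamb2 had r = 0.41 and rho = 0.28 with the meningeal sum and r = 0.83 and rho = 0.79 with the pericyte and smooth muscle sum, and without MEC P2 the r was 0.16 and 0.77. Col4a1 had r = 0.18 and rho = 0.09 and r = 0.71 and rho = 0.73, or r of -0.19 and 0.60 without MEC P2. Against the endothelial sum Lamb2 had r = 0.61 and Col4a1 r = 0.56, or 0.51 and 0.24 without MEC P2. Col23a1 had r = 0.17 and rho = 0.14 against the meningeal sum, r = 0.11 against the endothelial sum and r = 0.34 against the pericyte and smooth muscle sum. Lamc3 had r = 0.87 and rho = 0.75 against the endothelial sum, with an r of 0.59 without MEC P2. Against the pericyte and smooth muscle sum it had r = 0.70 and rho = 0.76, with an r of 0.70 without MEC P2. Among the members themselves Col1a1 and Col3a1 were the most alike pair, with r = 0.98 over the 64 libraries and 0.94 as deviations, followed by Col18a1 and Col3a1 with 0.96 and 0.93.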

How the data were processed

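Total RNA, depleted of ribosomal RNA, had been sequenced as stranded paired libraries. The authors trimmed reads with Trimmomatic 0.33, aligned them with STAR 2.4.0 to Rn6 and counted pairs over RefSeq exons with featureCounts (Subread 1.4.6-p1, strand used, pairs assigned to every gene they overlap), and deposited raw counts, 1 file per library. Here edgeR 4.0.16 (TMM, filterByExpr, quasi-likelihood test, R 4.3.3) was run on those counts per region, 32 libraries and 8 groups each, or on all 64, with Benjamini-Hochberg adjustment over all genes and a threshold of 0.05. Levels are CPM, log2 values use a prior count of 2, and RPKM divides by exon bases. The members and lists were chosen with earlier results of these data known. In each of the 5 groups, values by library were given for the 3 members with the highest RPKM and for the widest called layer and age differences in each direction in MEC and in LEC, and then for up to 3 members called with the lowest p for region and for the change with age. Other members are named with their LFC, and 1 member is counted but not reported here. Every pair of replicates differed by more than sampling noise. DESeq2 1.42.0, limma 3.58.1 (voom, quantile normalization), RLE size factors, other count filters, a replicate block and leaving out each replicate were the alternatives. Scripts were tested on simulated data. A single count was 0.0874 to 0.257 CPM.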

Additional observations from a re-analysis of the deposited data

Results flagged for a closer look

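In each group of 4 or 5 libraries, the extreme library of each of the 24 named members was compared with the rest of its group. Of 288 groups tested, 31 had a library far from the others (a gap above Dixon's critical value), where chance gives about 1 in 20, or 14. The members were read in the same libraries and some went together, so 1 odd library can be counted several times. The 31 are therefore not independent, and their number against 14 is no test. MEC LDeep P2 replicate 1, which also went against its label by layer II markers, was far above its group for 5 members: Col3a1 at 351 CPM, Col1a1 at 286 CPM, Col18a1 at 119.6 CPM, Lamc3 at 22.7 CPM and Col13a1 at 3.28 CPM. MEC LII P45 replicate 4 was far below its group for Col3a1 at 52.9 CPM, Col1a1 at 43.4 CPM, Col6a2 at 26.9 CPM, Col18a1 at 24.0 CPM and Col14a1 at 8.77 CPM. LEC LDeep P45 replicate 4, the other library against its label by layer II markers, was high for Lamb2 at 78.1 CPM, Col4a3 at 17.2 CPM and Col4a4 at 3.21 CPM.

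LEC LDeep P9 replicate 4 was low for Col6a2 at 11.5 CPM and Col18a1 at 5.25 CPM and high for Col26a1 at 25.4 CPM. MEC LII P2 replicate 3 was low for Col26a1 at 17.2 CPM and high for Col2a1 at 18.6 CPM and Lamb3 at 5.02 CPM. MEC LDeep P45 replicate 2 was high for Col5a1 at 28.9 CPM and Col18a1 at 17.1 CPM. Single libraries stood high for Col16a1 (LEC LDeep P2 replicate 4, 35.3 CPM), Col9a2 (MEC LII P9 replicate 1, 29.9 CPM), Col23a1 (MEC LDeep P45 replicate 1, 29.6 CPM) and Col2a1 (MEC LII P9 replicate 4, 8.61 CPM). Others stood high for Col8a1 (LEC LII P2 replicate 3, 3.30 CPM), Col13a1 (LEC LDeep P45 replicate 1, 1.65 CPM) and Col17a1 (MEC LDeep P9 replicate 2, 0.160 CPM). Single libraries stood low for Col3a1 (LEC LII P9 replicate 3, 178 CPM), Col14a1 (MEC LII P2 replicate 5, 3.58 CPM) and Col4a4 (MEC LII P45 replicate 1, 1.43 CPM).

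The layer difference itself differed between the younger and older ages, by the test of that change, for 8 members. Col14a1 (LFC of 2.21 in MEC and 1.91 in LEC) and Col26a1 (1.85 and 1.80) gained on the side of LII. In LEC the change was -3.07 for Col13a1, -2.11 for Lamc3, -2.0 for Col3a1, -1.66 for Col18a1, -1.16 for Col23a1 and -1.11 for Col7a1.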

How the results depend on the processing

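The layer counts over all ages stayed within 1.5 times of 27 in MEC and 25 in LEC under every alternative run, and no member was called for a difference of the layer difference between regions in any. No scaling moved the median LFC of all genes by over 0.1. For the named members, 4517 values kept their side of the threshold or stayed within the spread between replicates, 279 called values fell short of the threshold, 4 levels moved with a prior count of 0.5, and 1 reversed: Col1a1 with age in LEC was -0.20 when libraries of a replicate number were summed.

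Requiring 10 counts in every sample left 21 members to test in MEC and 20 in LEC or in all samples, and the counts went to 11 for age in MEC, 10 for age in LEC, 9 for layers at P45 in MEC, and 10, 15, 10 and 12 for layers at P2, P9, P23 and P45 in LEC. With that filter the change with age had 0 calls in MEC and 2 in LEC, the step from P9 to P23 10 and that from P23 to P45 1. For layers at P2 in MEC, DESeq2 called 4, limma voom 1 and a fit of all 64 samples 5, and the fit without MEC LDeep P2 replicate 1 called 13. For the change with age in MEC, DESeq2 called 4 and limma voom 1, and in LEC the fit of all 64 samples called 4. The cause was not tested, beyond fewer members being tested with the filter.

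Leaving out each replicate in turn gave 1 to 4 calls for region, 0 to 12 for layers at P2, 4 to 19 at P9, 4 to 20 at P23 and 4 to 21 at P45 in MEC, 14 to 24 at P9 in LEC, 1 to 4 for the change with age in MEC and 1 to 3 for the step from P23 to P45.

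The labels do not say what libraries with equal replicate numbers share, and the study ties such numbers to animals for its microarray samples. The deviations of equally numbered libraries from the group means correlated with a mean r of 0.12 to 0.14, against -0.05 to -0.04 for different numbers, and 8 or 9 of the 16 pairs of layers or regions were over 0.1. Deviations within a group sum to 0, so a mean above 0 for equal numbers pushes that for different numbers below 0. With the replicate block the counts were 28 for layers in MEC, 26 in LEC, 3 for region and 3 for layers at P2 in MEC, and 1 for the step from P23 to P45 when the libraries of a number were summed.

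A single count was 0.0874 to 0.257 CPM, so that differences of Col13a1, Col17a1, Lamb3 and Col1a2 in LDeep rest on few counts. Those of Col6a4 do too, with 553 counts over the 64 libraries. Without MEC LDeep P2 replicate 1, MEC also gained calls at P9 (Col26a1, Col3a1 and Col5a1), P23 (Col18a1, Col1a1, Col1a2, Col3a1 and Lamc3) and P45 (Col18a1, Col1a1, Col3a1 and Col4a1). The shares of all genes in that fit at these ages are not given here, so these gains are not a result about the members.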
